A study of Brassica napus with 12 samples.

Results

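The response of Zhongshuang 9, a cultivar of oilseed rape (Brassica napus), to full submergence was followed in the first true leaf. The comparison holds 6 of the 12 libraries of the series: all 3 libraries of submerged Zhongshuang 9 and all 3 of Zhongshuang 9 kept in air, chosen by the cultivar and treatment in the labels. The other 6 libraries are of the cultivar Avatar under the same treatments. Plants of both groups were 16 days old at harvest and had grown in 8 h days at about 23 °C. On day 15, 2 h into the light period, the submerged group was placed fully under tap water for 24 h, while the air group stood in similar boxes without water. Replicates carry the numbers 1, 3 and 4 in each group. Nothing in the labels says how many plants a library holds or whether replicates were sown separately, so p-values measure only the spread between these samples, which may be technical.

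Water slows the diffusion of gases by orders of magnitude. A submerged leaf therefore receives little oxygen in darkness and little carbon dioxide in light, and the gaseous hormone ethylene collects inside it. In flowering plants low oxygen stabilises a group of ethylene response factors that are otherwise degraded. These switch on genes of fermentation and sugar breakdown, while photosynthesis, protein synthesis and growth are often cut back to save energy and carbon. Oilseed rape is an allotetraploid with an A and a C subgenome, so many genes have near copies in A and C.

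The files list 101040 coding sequences, here called targets, by identifiers that give a chromosome and a gene number (BnaA05g35130D lies on chromosome A05). They hold no gene names. RefSeq's genes of the assembly Da-Ae matched 3347 identifiers (3.31%), of which 2 carry a gene name besides the locus name. Fermentation, photosynthesis or hormone genes could therefore not be picked out, and neither could markers of leaf tissue, so the labelled tissue was not checked against its markers. Targets are described by their levels, their chromosomes and their values, and no role is given to an identifier. In leaf RNA, fewer cells of a type and less RNA per cell cannot be told apart.

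Depth was even. The 6 libraries summed to between 24389813 and 35873196 estimated counts, and between 62947 and 64350 targets had a value above 0. Levels are given in CPM, which sets every library to the same sum. Where a library has no count, up to 3 counts remain possible, which equals 0.0836 to 0.123 CPM in these libraries and covers counting error only. Rank correlations across targets were 0.974 to 0.982 between air libraries and 0.987 between submergence replicates 3 and 4. Submergence replicate 1 correlated at 0.889 with each of these, and at 0.714 to 0.745 with the air libraries, against 0.805 to 0.836 for the other submerged libraries. For targets at a mean log2 CPM of at least 1, the log2 deviation of submergence replicate 1 from the mean of its group's other libraries had an SD of 1.14, and 16.1% of 33201 targets were off by at least 2-fold. For the air libraries the SD was 0.30 to 0.39. Submergence replicates 3 and 4, whose comparison includes replicate 1, had 0.61 and 0.60.

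The library labelled Zhongshuang 9 submergence replicate 1 also went against its cultivar label in part. In air, 150 targets had a mean of at least 5 CPM in Avatar and stayed under 0.1 CPM in every Zhongshuang 9 library. None of the 150 reached 1 CPM in submergence replicate 3 or 4, but 56 (37.3%) did in replicate 1. Their median there was 10.5 CPM, against 12.5 CPM for their means in submerged Avatar. Of the 26 such targets on chromosome C01, 22 reached 1 CPM in replicate 1. Conversely, 52 targets had a mean of at least 5 CPM in Zhongshuang 9 air and stayed under 0.1 CPM in Avatar air. Of these, 50 reached 1 CPM in each of submergence replicates 3 and 4 and 32 in replicate 1, where 18 were under 0.1 CPM. Over the targets tested in all 12 libraries, the rank correlation of replicate 1 was 0.89 with its own group and 0.821 to 0.843 with submerged Avatar. A further 31 targets were at 5 CPM or more in replicate 1 and under 0.1 CPM in every other library of the series, against 0 in each of the other 5 Zhongshuang 9 libraries. Another 169 were under 0.1 CPM in replicate 1 and at 1 CPM or more in the 11 others, against 0 or 1 in each of the other 5 Zhongshuang 9 libraries and up to 375 in an Avatar library (air replicate 3). Whether it comes from an off-type or outcrossed plant, or holds RNA of both cultivars, was not tested. Each mean or fit over 3 submerged libraries counts it as 1 of them. Calls and fold changes are given below with all 6 libraries and also without it, and values per library show it by itself.

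**Figure D1:**
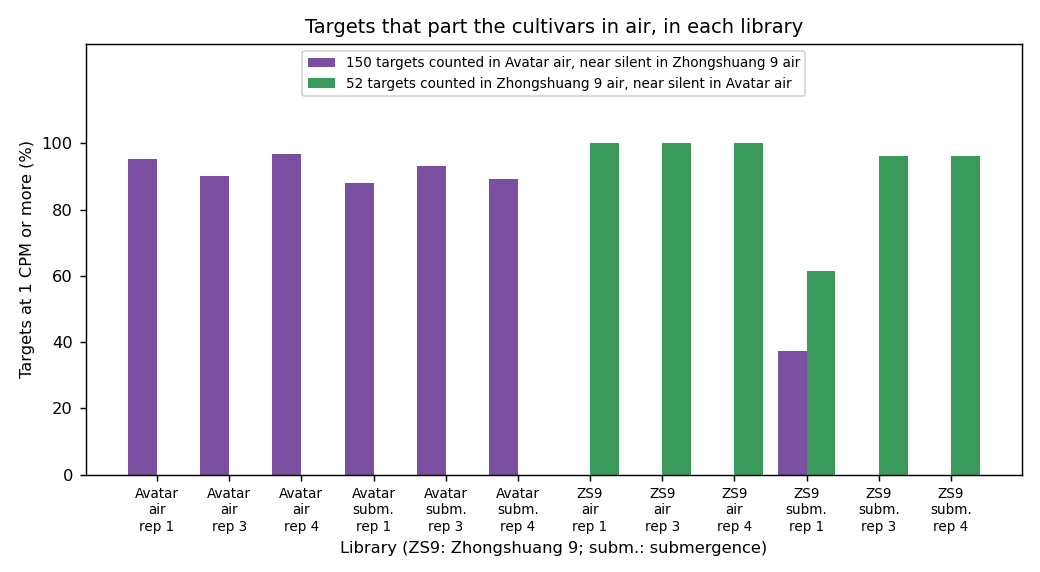
Percent of targets at 1 CPM or more (vertical axis) in each of the 12 libraries, for 150 targets counted in Avatar air and near silent in Zhongshuang 9 air (purple) and 52 targets with the reverse pattern (green). Zhongshuang 9 submergence replicate 1 is the one library with both sets, 37.3% of the first and 61.5% of the second.

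Submergence changed a large part of the leaf transcriptome. Of 50734 targets with enough counts in these 6 libraries, 11858 rose and 12004 fell, 23.4% and 23.7% (edgeR quasi-likelihood test, Benjamini-Hochberg adjusted p up to 0.05). Called targets together were 47% of those tested. The balance of risers and fallers depends on the scaling, which here sets the median log2 fold change of all targets to 0.01. Scaled by library totals alone the median was 0.29, with 16569 risers and 9002 fallers, so that risers were 64.8% of calls in place of 49.7%. The groups did not overlap in 61.5% of the targets, and in 73.6% without submergence replicate 1. A group with fewer libraries overlaps less easily, so the higher share by itself does not show a clearer response. Risers had a median log2 fold change of 1.32 and fallers of -1.40. At least 2-fold changes were seen in 7853 risers and 8405 fallers, at least 4-fold in 3428 and 3482, and at least 16-fold in 987 and 754. These numbers without submergence replicate 1 were 8854 and 9474, 3520 and 3811, and 932 and 840.

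Leaving out submergence replicate 1 raised the number of calls. Of 51722 targets then tested, 14845 rose and 14793 fell, 57.3% in all (edgeR). Both fits called 11644 risers and 11758 fallers, and no target was called in opposite directions. Of the calls with all 6 libraries, 183 risers and 246 fallers lost their call, and a further 31 risers no longer had enough counts to be tested. In turn 2931 targets became risers and 2750 fallers. The median log2 fold change of risers was then 1.18 and that of fallers -1.28. Risers made up 49.7% of calls with the library and 50.1% without it.

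**Figure D2:**
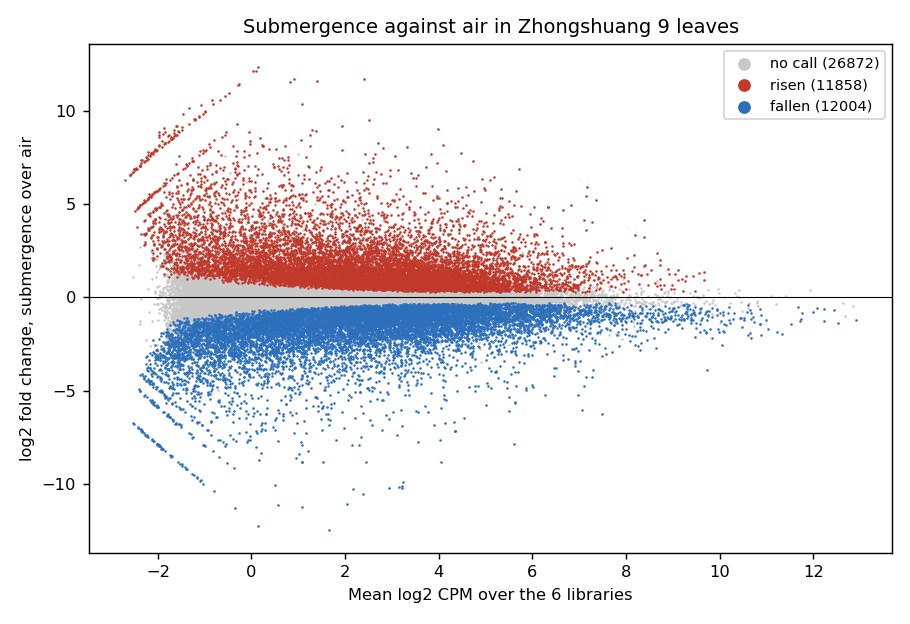
Log2 fold change of submergence over air (vertical axis) against the mean log2 CPM over the 6 libraries (horizontal axis), with 1 point per target and 11858 risers in red, 12004 fallers in blue and targets with no call in grey. Risers and fallers spread on both sides at low and middle levels, and at the highest levels fallers prevail.

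Fallers outnumbered risers most clearly among the most abundant targets. At a mean of 100 CPM and over, 21.3% of 1349 targets rose and 45.7% fell. From 20 to 100 CPM the shares were level, with 29.5% of 7046 targets risen and 29.7% fallen, and from 5 to 20 CPM 28.2% of 15586 rose and 24.3% fell. From 1 to 5 CPM 21.6% of 17606 targets rose and 21.6% fell, and under 1 CPM 14.1% of 9147 rose and 18.5% fell. These shares are a description, with no test between levels. Without submergence replicate 1, 26% rose and 54% fell at 100 CPM and over, and the lower levels had 35.8% and 36.5%, 35% and 29.5%, 26.9% and 26.3%, and 16.8% and 21.8%. Scaled by library totals alone, fallers led at 100 CPM and over, with 27.7% risen and 36.4% fallen, whereas risers led at the 4 lower levels. The median absolute log2 fold change of called targets was 2.24 under 1 CPM and 1.15 at 100 CPM and over.

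Counts were less concentrated in the top targets under submergence. The 20 highest targets of each library taken by itself held 11.16% ± 0.473 of counts in air and 7.75% ± 0.442 under submergence (SD, n = 3, exact permutation test, two-sided, p = 0.1, the smallest that 3 against 3 allows). The submerged mean was 8.005% without submergence replicate 1, again with p = 0.1 (exact permutation test). This measure does not depend on which targets lead in either treatment.

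The leading targets of each treatment were then followed into the other. By TPM, which scales counts to the target's length and to a common total, the 20 highest targets of air leaves held 13%, 12.3% and 13.2% of the total in air replicates 1, 3 and 4. They held 6.52%, 7.83% and 8.1% in submergence replicates 1, 3 and 4. These 20 were chosen by the air libraries from which the change is measured, a choice that favours fallers, so the counts describe them and are no test. Of the 20, 16 fell, none rose and 4 had no call, and without submergence replicate 1 there were 19 fallers. Of the 100 highest in air 69 fell and 5 rose, and of the 1000 highest 588 fell and 86 rose. There were 84 and 684 fallers and 6 and 122 risers without submergence replicate 1. The background was 23.7% fallers over all targets and 45.7% at 100 CPM and over.

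A choice by the submerged libraries, which favours risers in the same way, gave a different picture. Of the 20 highest targets in submerged leaves 7 rose and 9 fell, and 8 and 10 without submergence replicate 1. With scaling by library totals alone 8 rose and 6 fell. Of the 100 highest 28 rose and 41 fell, and of the 1000 highest 338 rose and 324 fell. Without submergence replicate 1 these were 31 and 55, and 395 and 389. By library totals alone they were 32 and 28, and 403 and 226. The joint share of TPM of the 20 highest was 10.8%, 9.89% and 10.7% in air and 8.87%, 9.84% and 9.81% under submergence. Of these 20, 11 were also among the 20 highest in air, and of the 100 highest 70 were shared.

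Risers and fallers made up a large part of each library. Risers held 10.3%, 9.5% and 9.69% of counts in air replicates 1, 3 and 4 and 33.6%, 31.1% and 30.7% in submergence replicates 1, 3 and 4. Fallers held 53.9%, 55.3% and 55.5% in air and 26.8%, 28.9% and 29.3% under submergence. The calls themselves come from these counts, so the shares describe how much of the RNA the called targets make up and are not a test. Targets with no call held 34.7% to 35.6% of counts in air and 38.8% to 39.8% under submergence. The risers called without submergence replicate 1 held 37.4% of counts in that library, beside 37.7% and 37.3% in submergence replicates 3 and 4 and 12.9% to 13.9% in air.

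A small group of targets went from silent to counted. With no count in any air library and at least 10 counts in each submerged library, there were 87 such targets, 41 in the A and 45 in the C subgenome, with a median of 1.63 CPM under submergence. The reverse, no count in any submerged library and at least 10 in each air library, held for 65 targets, 27 in A and 37 in C, with a median of 0.848 CPM in air. Leaving submergence replicate 1 out of the rule gave 106 targets switched on, 11 of which had no count in it, and 122 switched off, of which 65 had no count in it either.

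The 2 largest risers among all identifiers had no count in any air library. Like every other named target, both had values that were not whole in at least 1 library. Bounds and counting intervals of named targets cover counting error only, not how reads were divided between near-identical copies. BnaA09g50010D stood at 31.3, 15.2 and 14.9 CPM in submergence replicates 1, 3 and 4. With a floor of 3 counts per library in air it was at least 202-fold higher under submergence (edgeR adjusted p = 0.000717). BnaA08g26000D stood at 17.5, 17.9 and 18 CPM in the same libraries, at least 176-fold higher (edgeR adjusted p = 0.000101). Submergence replicate 1 was about level with the others for the second target and well above them for the first. Without it the bounds were at least 150-fold for BnaA09g50010D and at least 179-fold for BnaA08g26000D (edgeR adjusted p = 4.15e-06 and 3.36e-06).

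The 2 largest fallers were almost absent from submerged leaves. BnaCnng42990D, on a C chromosome that the identifier does not specify, stood at 99.1, 136 and 162 CPM in air replicates 1, 3 and 4. It had 2 counts in the submerged libraries together, both in replicate 1, a ratio of 6630 with a counting interval (exact binomial, 95%) of 1830 to 54700 (edgeR adjusted p = 8.33e-05). Without replicate 1 no submerged library had a count, and BnaCnng42990D was at least 1278-fold lower (edgeR adjusted p = 2.32e-06). In Avatar air it stood at 278, 0.0762 and 111 CPM in replicates 1, 3 and 4, so it was nearly absent from 1 library that was not submerged. BnaA05g06830D stood at 20.7, 16.8 and 19.6 CPM in air and had no count in any submerged library. It was at least 203-fold lower (edgeR adjusted p = 0.000126), and at least 184-fold without submergence replicate 1. The air libraries were closer together for the second target than for the first.

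Among the identifiers matched to RefSeq, 2231 could be tested, of which 596 rose and 500 fell. Called targets were 49.1% of them, beside 47% over all targets, and their median log2 fold change was 0.03. With submergence replicate 1 left out there were 682 risers and 601 fallers. The 5 matched targets that rose most are BnaC05g11680D, BnaA05g35130D, BnaA09g51230D, BnaC08g36260D and BnaA08g27180D. All lay below 2 CPM in every air library.

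BnaA05g35130D reached the highest level of the 5, with 107, 260 and 218 CPM in submergence replicates 1, 3 and 4 after 1.73, 0.987 and 1.24 CPM in air replicates 1, 3 and 4. Its log2 fold change was 7.21 ± 0.47 (SE, n = 3, edgeR adjusted p = 0.000156). Per length it rose from a mean of 1.13 to 200 TPM. BnaC08g36260D went from 0.225, 0.339 and 0.0327 CPM to 15.8, 31.3 and 29 CPM (log2 fold change 6.96 with an SE of 0.61, n = 3 per group, adjusted p in edgeR = 0.000376). For both targets submergence replicate 1 was the lowest of its group and still far above air, where the choice required no overlap. Without it the log2 fold changes were 7.53 and 7.22 (edgeR adjusted p = 4.13e-07 and 2.57e-06).

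The opposite order was seen for BnaA09g51230D and BnaC05g11680D. BnaA09g51230D went from 0.188, 0.123 and 0.0327 CPM in air to 29.9, 7.34 and 7.1 CPM (log2 fold change 7 with an SE of 0.91, n = 3 per group, adjusted p in edgeR = 0.00146). Its log2 fold change was 5.98 without submergence replicate 1 (edgeR adjusted p = 6.03e-06). BnaC05g11680D had 4 counts in the air libraries together and 15.6, 5.35 and 5.94 CPM under submergence. Its log2 fold change was 7.54 ± 0.78, and 6.87 without submergence replicate 1 (SE, n = 3, edgeR adjusted p = 0.000635 and 6.11e-06). In both, submergence replicate 1 was more than 2-fold above the other submerged libraries. BnaA08g27180D went from 0.113, 0.0617 and 0 CPM to 4.64, 5.62 and 7.1 CPM (log2 fold change 6.59 with an SE of 0.59, n = 3 per group, adjusted p in edgeR = 0.000392). Its log2 fold change without submergence replicate 1 was 6.74.

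The 5 matched targets that fell most are BnaA01g02080D, BnaC05g33510D, BnaA05g24000D, BnaA03g09600D and BnaA03g46470D. BnaA03g46470D was by far the most abundant, with 119, 115 and 125 CPM in air replicates 1, 3 and 4 and 3.03, 1.66 and 3.29 CPM in submergence replicates 1, 3 and 4. Its log2 fold change was -5.49 ± 0.29 (SE, n = 3, edgeR adjusted p = 0.000105), and its mean TPM went from 235 to 6.33. BnaA01g02080D went from 9.85, 15.2 and 14.4 CPM to 0.0757, 0.0615 and 0.15 CPM (log2 fold change -7.10 with an SE of 0.36, n = 3 per group, adjusted p in edgeR = 9.17e-05). The submerged libraries were together near the counting floor for this target.

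BnaC05g33510D went from 7.93, 9.94 and 10.6 CPM in air to 0.101, 0.0615 and 0.0748 CPM under submergence (log2 fold change -6.82 with an SE of 0.27, n = 3 per group, adjusted p in edgeR = 6.35e-05). BnaA05g24000D went from 10.3, 10.2 and 11.8 CPM to 0.101, 0.123 and 0.224 CPM. Its coding length is 207 bases, so the same fall was from 112 to 1.93 in mean TPM (log2 fold change of counts -6.19 with an SE of 0.29, n = 3 per group, adjusted p in edgeR = 8.23e-05). BnaA03g09600D went from 5.71, 7.13 and 6.37 CPM to 0.0757, 0.154 and 0.0748 CPM (log2 fold change -5.93 with an SE of 0.31, n = 3 per group, adjusted p in edgeR = 0.000101). In the 5 matched fallers submergence replicate 1 lay with the other submerged libraries and far below every air library. Their choice required groups that do not overlap, so this describes them and is no test. Without it the log2 fold changes were -5.60 for BnaA03g46470D, -6.95 for BnaA01g02080D, -7.03 for BnaC05g33510D, -5.94 for BnaA05g24000D and -5.70 for BnaA03g09600D.

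The targets with a gene name moved less. BnaA02g32290D, named KCP1, stood at 24.8, 22.2 and 26 CPM in air replicates 1, 3 and 4 and at 39, 43 and 43.9 CPM in submergence replicates 1, 3 and 4. Its log2 fold change was 0.79 ± 0.12 (SE, n = 3, edgeR adjusted p = 0.00233). BnaCnng15100D, named TR1, stood at 4.89, 4.57 and 4.87 CPM in air and at 12.7, 9.53 and 9.83 CPM under submergence (log2 fold change 1.16 with an SE of 0.16, n = 3 per group, adjusted p in edgeR = 0.00174). In neither target did the groups overlap, as in 61.5% of all targets tested. The log2 fold changes were 0.86 and 1.04 without submergence replicate 1 (edgeR adjusted p = 0.000316 and 0.000302).

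**Figure D3:**
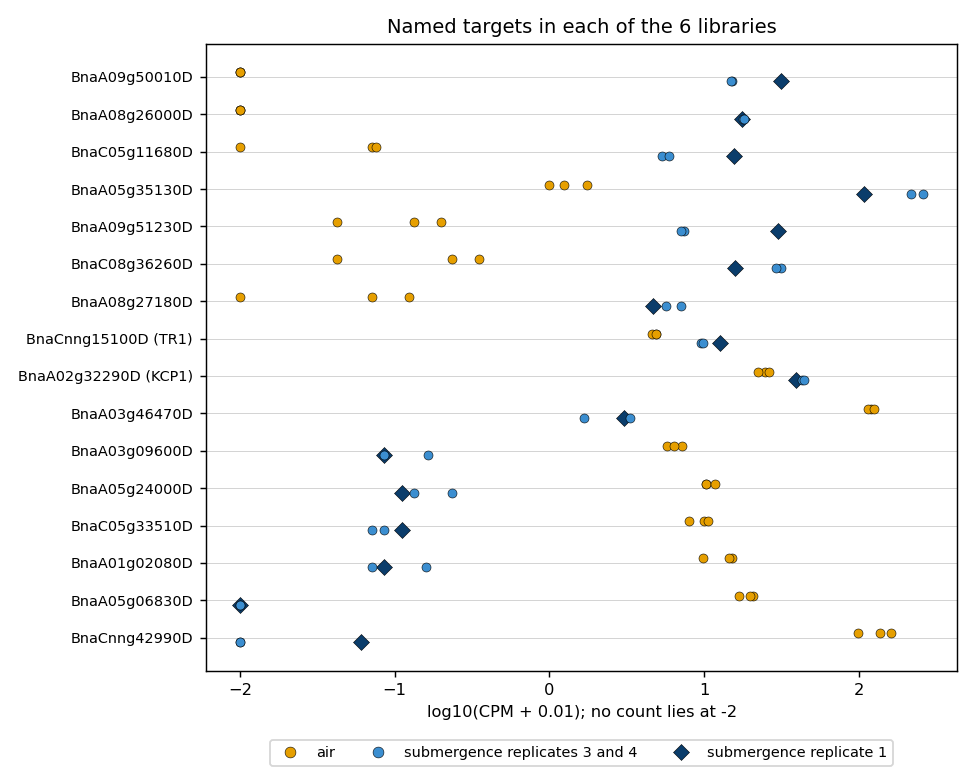
Level of the 16 named targets in each library as log10(CPM + 0.01), with air libraries in orange, submergence replicates 3 and 4 as light blue circles and submergence replicate 1 as dark blue diamonds. Air and submergence do not overlap in any of them. Replicate 1 lies well above the other submerged libraries for BnaA09g50010D, BnaC05g11680D and BnaA09g51230D, and for BnaCnng42990D by 2 counts. It lies well below them for BnaA05g35130D and BnaC08g36260D, with smaller gaps in either direction for other targets.

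Whether these responses were particular to Zhongshuang 9 was tested against Avatar for the 13 named targets counted in both treatments, in a model over all 12 libraries. None differed between cultivars in edgeR's quasi-likelihood test adjusted over 55674 targets, of which 1.25% were called, although 4 had an unadjusted p under 0.05. All but the 2 with a gene name were chosen for large changes in these same Zhongshuang 9 libraries. That choice favours a larger change in Zhongshuang 9 than in Avatar, so the p-values are not free of it. limma-voom called none of the 13 and DESeq2 called 1, BnaA01g02080D. That target stood at 13.2 ± 2.91 CPM in Zhongshuang 9 air and 0.0367 ± 0.0382 CPM in Avatar air (SD, n = 3). In Avatar it stood at 0.0166 ± 0.0145 CPM under submergence (SD, n = 3), and no Avatar library was above 0.0762 CPM. The difference between the log2 fold changes was -6.17 ± 1.5 (SE, edgeR adjusted p = 0.0798, range over the alternatives 0.00259 with DESeq2 to 0.222). BnaC05g33510D went from 8.26 ± 2.28 to 0.252 ± 0.0377 CPM in Avatar (SD, n = 3), so that the log2 fold changes differed by -1.80 ± 0.41 (SE, edgeR adjusted p = 0.0654, range over the alternatives 0.06 to 0.299). BnaA05g35130D went from 1.07 ± 0.188 to 64.3 ± 13.4 CPM in Avatar (SD, n = 3; edgeR adjusted p of the difference 0.207). Without Zhongshuang 9 submergence replicate 1 none of the 13 differences was called by edgeR either. The lowest adjusted p was then 0.0506, for BnaA05g35130D with a difference of 1.61, and the differences of BnaA01g02080D and BnaC05g33510D were -6.03 and -2.04 (edgeR adjusted p = 0.102 and 0.087). The remaining named targets, with no count in 1 treatment, were left out of this test. In Avatar, BnaA08g26000D and BnaA09g50010D had no count in air. Submerged Avatar replicates 1, 3 and 4 had 16.8, 4.11 and 10.3 CPM of the first and 3.71, 3.57 and 1.9 CPM of the second. BnaA05g06830D stood at 11.2, 6.4 and 8.86 CPM in Avatar air and had no count in submerged Avatar.

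The response was then read in each library from calls that did not use it. Calls made without a library share the libraries of the other group with this reading, so the values describe the library and are no independent test. Of the 14845 risers called without submergence replicate 1, 85.1% lay above all 3 air libraries in replicate 1, and of the 14793 fallers 91.1% lay below all of them. The median log2 difference of replicate 1 from air was 1.05 for these risers and -1.31 for these fallers, close to the 1.18 and -1.28 of the fit that left it out. For each of the other 5 libraries the shares were between 97.8% and 99.8%, over smaller sets of 8275 to 10554 risers and 8989 to 10279 fallers that replicate 1 had helped to choose.

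Submergence replicate 1 went against the direction of the other libraries for some targets. Among targets tested both ways, 14575 risers and 14508 fallers were called without it. Of these risers 1375 lay below all air libraries in it, and 192 of the 1375 had no count. In the opposite sense 618 of the fallers lay above all air libraries. When the chromosomes were divided into 737 blocks of about 40 neighbouring targets, 43 blocks with 1758 targets had a median log2 deviation of -0.5 or lower in replicate 1, against 1 to 3 blocks in the other libraries except air replicate 4 (40). Of the lowered blocks 15 were on chromosome A06, 7 on C02 and 5 on A07. Of the 1375 risers 926 lay in blocks, 303 of them (32.7%) in lowered blocks, which held 5.88% of all block targets. Of the 618 fallers 400 lay in blocks, 13 of them in lowered blocks. A further 46 lay in blocks raised by the same margin, which held 1.34% of block targets. Blocks were marked by the values of replicate 1 itself, so these shares are no test.

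**Figure D4:**
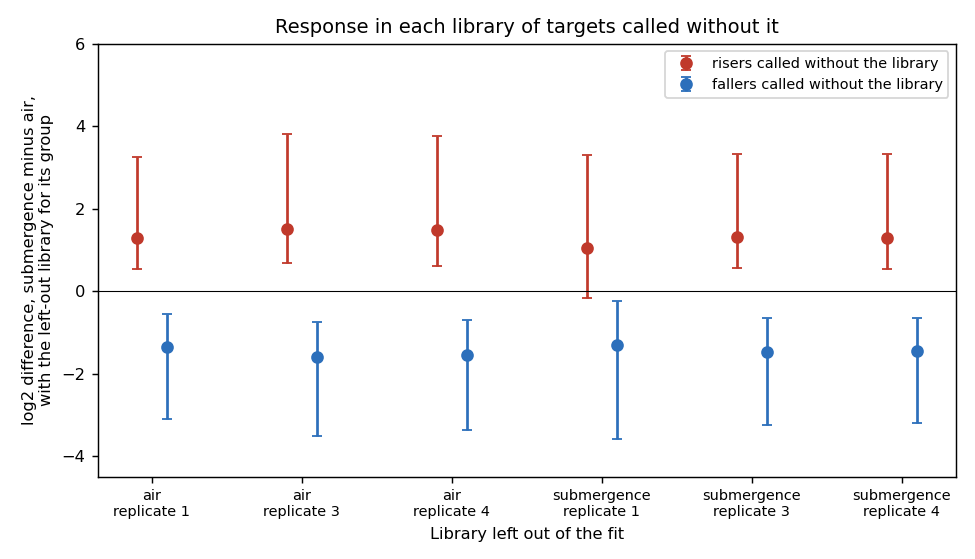
Log2 difference between submergence and air (vertical axis), with the left-out library standing for its group, for targets called as risers (red) or fallers (blue) without that library. Points are medians and bars run from the 10th to the 90th percentile of targets, and submergence replicate 1 is the one library whose bar for risers reaches below 0 (-0.16).

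Shares of calls in the A and C subgenomes are given as a description, with no test. Of 23991 A targets 22.4% rose and 24.5% fell, and of 26611 C targets 24.2% rose and 23% fell, beside 23.4% and 23.7% over all targets. Without submergence replicate 1 the shares of risers were 28.7% in A and 28.9% in C, and those of fallers 30.4% and 27.1%. Without both submergence replicate 1 and air replicate 4, an alternative chosen after the data were seen, risers were 27% and 27.3% and fallers 29.3% and 27.5%. Counts on A chromosomes made up 47.74%, 47.65% and 48.9% of the total in air replicates 1, 3 and 4 and 45.72%, 46.79% and 46.88% in submergence replicates 1, 3 and 4 (exact permutation test, two-sided, p = 0.1). The extreme values were those of air replicate 4 and submergence replicate 1.

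Among the named chromosomes, C08, C02 and A06 had the lowest shares of called targets with all 6 libraries, at 35.6%, 38.4% and 41.2%. On C08, 22.4% of 2498 targets rose and 13.2% fell, with a median log2 fold change of 0.26, and 27.6% and 15.5% without submergence replicate 1. Without air replicate 4, whose 40 lowered blocks are the most in the air group, 17.8% rose and 18.6% fell on C08 with a median of 0.02, beside 17.1% and 18.2% over all targets in that fit. On A06 18.9% rose and 22.3% fell, and on C02 19.4% and 19%. Without submergence replicate 1 A06 had 29.2% risers and 29.7% fallers and C02 29.8% and 27.4%, beside 28.7% and 28.6% over all targets. Inside the blocks lowered in replicate 1, which were chosen by its own values, 30.3% of targets were called with it and 63.7% without it, and in blocks neither lowered nor raised 52.6% and 63%. On the remaining 16 chromosomes between 42.4% and 52% of targets were called with all 6 libraries.

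**Figure D5:**
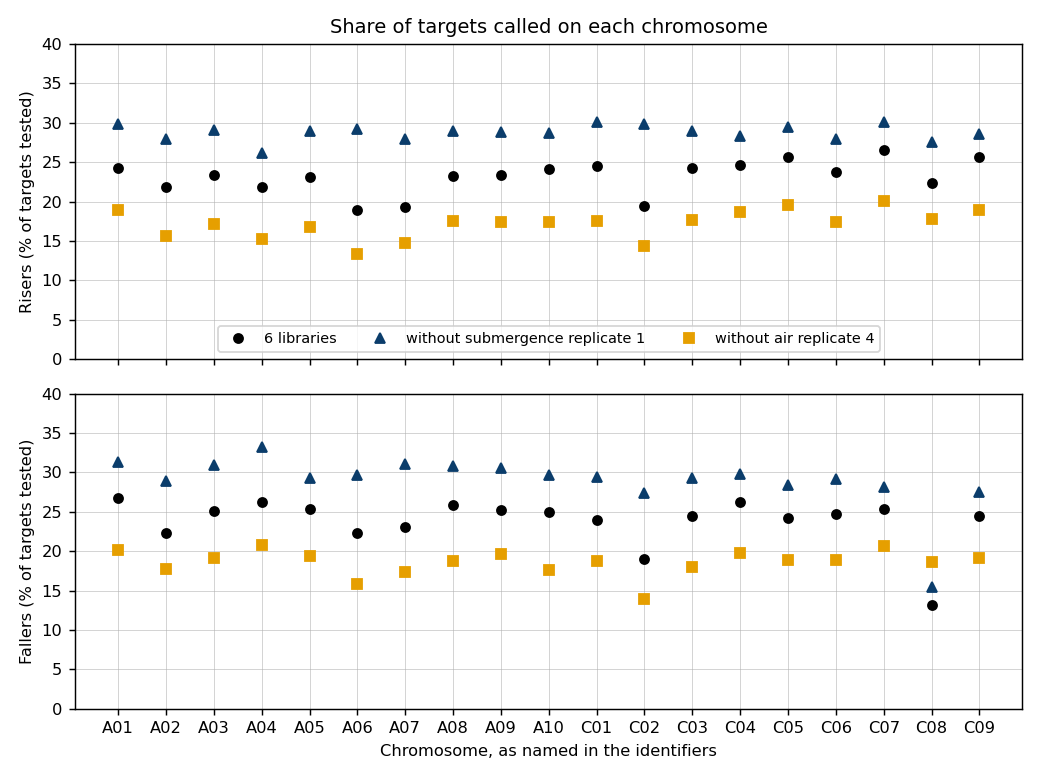
Percent of tested targets that rose (upper panel) or fell (lower panel) on each of 19 chromosomes, with all 6 libraries (circles), without submergence replicate 1 (triangles) and without air replicate 4 (squares). The low share of fallers on C08 (13.2%) is at 18.6% without air replicate 4, and the low shares of calls on A06 and C02 lie with the other chromosomes without submergence replicate 1.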

How the data were processed

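Per the labels' protocols, the second cDNA strand was marked with dUTP and removed before Illumina sequencing. Tools named in the submitters' processing notes are kallisto, limma and edgeR. Estimated counts and TPM were deposited per coding sequence, in the columns kallisto writes, per the file headers. Strand setting, tool versions and genome build: not given in the sources used here. kallisto divides reads that fit several targets, so values of near-identical copies are uncertain singly. Over all 101040 targets in the 6 libraries, zeros included, 36.5% of estimated counts were not whole. Of the targets tested, 42881 had a value that was not whole in at least 1 library, and 7853 were whole in all 6.

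Estimated counts of the 6 libraries were rounded to whole numbers, filtered with filterByExpr and scaled by TMM (factors 0.902 to 0.912 in air, 1.084 to 1.128 under submergence). edgeR 4.0.16 (R 4.3.3) fitted a mean per group, with Benjamini-Hochberg adjustment over 50734 targets and a threshold of 0.05. A standard error is the fold change divided by the root of F. Where 1 group has few counts it can be smaller than counting error alone would give, as for BnaC05g33510D. The fit was tested on simulated data with the same spread for all targets. Few targets were changed, equally up and down, and no library stood apart. The simulation therefore cannot speak to the scaling or to submergence replicate 1. CPM of named targets, level classes and overlap of groups uses TMM-scaled totals. Label checks and the targets that went on or off use plain totals. Blocks and deviations use log2 CPM with 2 counts added. Alternatives used DESeq2 1.42.0, limma 3.58.1, other scalings, filters and subsets of libraries.

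Members, lists and tests were chosen with earlier results of these data known. The named targets are the 2 largest risers and fallers of all identifiers and the 5 of those matched to RefSeq, among called targets with at least 5 CPM in the higher group and no overlap, plus the 2 with a gene name. The 34 planned gene lists could not be evaluated, because the identifiers carry no gene names.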

Additional observations from a re-analysis of the deposited data

How the results depend on the processing

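The numbers of risers and fallers (11858 and 12004) stayed within 1.5 times under RLE factors, library totals alone, no filter, DESeq2, limma-voom, limma on TPM (log2, pseudocount 1 or 0.1), a fit over 12 libraries, the replicate block, and the removal of chromosomes A02, A06, A08, C02 and C08. With single libraries left out they ranged from 8275 to 14845 risers and from 8989 to 14793 fallers. A filter at a mean of 5 CPM left 23981 targets, with 6918 risers and 6743 fallers. Targets with whole counts in all 6 libraries were also fitted by themselves, an alternative chosen after the data were seen. They numbered 7935, with 1380 risers and 1413 fallers. Risers were 49.7% of calls with TMM factors but 64.8% when scaled by totals alone, and 62.6% and 63.3% for TPM at the pseudocounts 1 and 0.1.

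Deviations of same-numbered libraries correlated weakly, at 0.033, 0.004 and 0.103 for replicates 1, 3 and 4. Differently numbered libraries correlated at -0.063 to 0.019. For each submerged library the same-numbered air library had the highest value. Values this small do not settle whether replicate numbers pair the libraries. With the replicate number as a block, 20135 targets were called in place of 23862. All 16 named targets kept their direction and call in each alternative run that kept them in the test. Composition differences on plain library totals kept their sign with single libraries left out. The share of the 20 highest targets differed by -3.67 to -3.16, that of A chromosomes by -1.86 to -1.23, and targets at 1 CPM by 1154 to 1488. The last difference depends on the scaling. With TMM-scaled totals, 40440, 39978 and 40017 targets reached 1 CPM in air replicates 1, 3 and 4. In submergence replicates 1, 3 and 4 there were 39400, 39746 and 40191.

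Differences between cultivars near 0 changed sign without passing a test: that of BnaA02g32290D was -0.01 and 0.09 with RLE factors and with DESeq2, that of BnaA03g46470D was 0.02 and -0.04 with library totals and with limma-voom and -0.02 with the replicate block, that of BnaA03g09600D was -0.11 and 0 with DESeq2 and 0.31 with limma-voom, and that of BnaA08g27180D was -0.71 and 0.14 with limma-voom. With single Zhongshuang 9 libraries left out, the ranges were -0.07 to 0.05 for BnaA02g32290D, -0.15 to 0.28 for BnaA03g46470D, -0.52 to 0.1 for BnaA03g09600D, -1.28 to 0.05 for BnaA08g27180D and -0.1 to 1.08 for BnaC08g36260D. Under a mean of 1 CPM 32.7% of targets were called, and what depth adds there was not tested.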

Other observations

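Neighbouring targets changed in the same direction slightly more often than distant ones. Of 10732 pairs of tested targets that follow each other on a chromosome and were both called, 55.6% had the same direction, against 50% from the shares of risers and fallers alone. The share was 51.9% at 2 steps, 51.2% at 5, 50.5% at 20 and 50.4% at 100 steps. Without submergence replicate 1 it was 54.7% for direct neighbours and 50.5% at 100 steps. Direct neighbours can be tandem copies that share reads, and the part of this in the excess was not tested.

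Coding length differed little between directions. Risers had a median of 1065 bases and fallers of 1110, and among targets at 5 CPM or more the medians were 1230 and 1167 bases, beside 1275 for targets with no call. Targets whose estimated counts were whole in all 6 libraries, for which no divided reads show, had 29.5% risers and 21% fallers at 5 CPM or more (1324 targets). The 22657 others at this level had 28.1% and 27.5%. Without submergence replicate 1 the shares were 35.6% and 26.1% against 34.7% and 33.4%. The excess of risers depends on the scaling. Over all levels the main fit called 1597 risers and 1415 fallers among the targets with whole counts. Scaled and fitted by themselves, such targets had 1380 risers and 1413 fallers.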
